A study of Drosophila melanogaster with 5 samples.

Results

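Odorant-binding proteins are small secreted proteins, and the genes described here are those whose single annotated symbol begins with Obp and a number. By that rule 34 genes were annotated on 36 probes, and 31 of them, on 32 probes, had a value among 10124 measured genes. A further 17 Obp genes of the RefSeq gene table, among them the antennal genes Obp83a and Obp83b, were not analysed here, and Obp19c, Obp56c and Obp58d were annotated but had no value. All 34 symbols were the same in the annotation of 2007 and in the RefSeq table. Genes were matched by Entrez identifier, since that table lists Obp57a as an older name of Obp57c and Obp99d as one of Obp99b.

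Whole Drosophila melanogaster females, 14 days old and fed only yeast paste for the last 48 h, were compared in 2 biological repeats, hybridised to 5 two-colour arrays. The IPC-deficient females carried InsP3-Gal4 with UAS-RPR/HID, in which a Gal4 driver expresses the cell death genes reaper and hid in the insulin-producing cells (IPCs) of the brain. The control females carried InsP3-Gal4 with UAS-LacZ, so both groups had the driver and a transgene. Females of both groups had been kept with males for 11 days, so mating was possible. IPC-deficient RNA was in Cy5 on 2 arrays and in Cy3 on 3. The labels do not say how many flies went into a repeat or which array held which repeat.

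Odorant-binding proteins fill the fluid that bathes smell and taste neurons, where support cells of each hair secrete them. They bind small hydrophobic molecules such as odorants, pheromones and fatty acids, and their fold is held together by a conserved set of cysteines. In Drosophila many are also made elsewhere, including the fat body, glia and the male reproductive tract. Many of the genes lie in tandem clusters, and the number in the symbol gives the band of the chromosome.

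The authors deposited 1 signed fold change for each probe, and it was identical in every array column where it was filled. On the log2 scale used below, a value of 0 means equal RNA in both groups, and a positive value is read as higher in IPC-deficient females. This direction is likely rather than stated. The design text names the deficient flies first, and tobi, a gene known as a target of brain insulin whose RNA is reported as reduced without the IPCs, had a value of -4.10. With the sign turned, each direction below would be the opposite. No array had a value of its own, so the data hold no spread between arrays or flies, and none of the differences could be tested. A threshold of 1.5-fold, 0.58 on the log2 scale, is used as a rule of size. In whole flies, fewer cells of a type and less RNA per cell cannot be told apart.

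How well a gene was measured is shown by how many of its probe's 10 possible spots (2 copies on each of 5 arrays) were filled. Where a gene had several probes with a value on all 5 arrays, these differed with a pooled SD of 0.18 (647 genes, 1437 probes), which makes the SD of a difference between 2 such probes 0.25. Probes with 9 or 10 filled spots differed from other such probes of their gene by a median of 0.11, and 2.60% of 1001 differed by 1.5-fold or more. For probes with 5 to 8 filled spots, set against the well-filled probes of their gene, the median difference was 0.16 and 7.13% of 421 reached 1.5-fold. For probes with 1 to 4 filled spots the median was 0.42 and 43.4% of 281 reached it. These errors describe probes, not flies, and genes of a family with 1 probe each carry them in full.

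Of the 31 Obp genes, 5 lay at 1.5-fold or more on the positive side, which is 16.1%, against 2.24% of all measured genes. They were Obp56d, Obp56a, Obp19d, Obp56e and Obp57c. On the negative side 1 gene, Obp69a, reached 1.5-fold, which is 3.23% of the Obp genes and near the 3.11% of all measured genes. The other 25 lay between. In all, 23 genes were above 0 and 8 below, and the median was 0.10, whereas 48.1% of all measured genes were above 0 and their median was -0.01. No Obp gene lay between 0.30 and 0.62. The gene at the lower edge of this gap, Obp58b, had 3 filled spots on 2 arrays, and the highest of the other genes with a value on all 5 arrays was Obp44a at 0.28. The list is a description of this family; no test sets it against other genes.

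**Figure D1:**
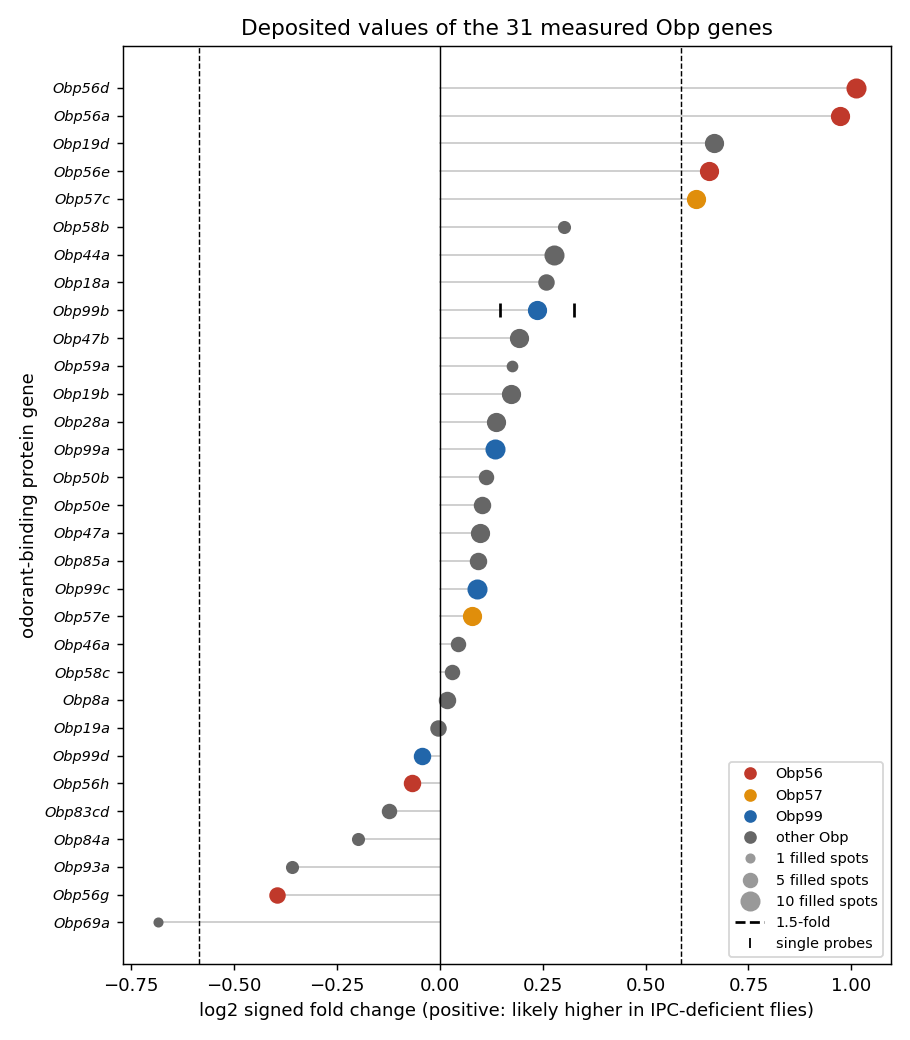
Log2 signed fold change (horizontal axis) of each of the 31 measured Obp genes (vertical axis, ordered by value). Point size gives the filled spots of the best-filled probe, colour the gene cluster, dashed lines 1.5-fold, and vertical ticks the 2 probes of Obp99b; 5 genes lie beyond the line on the positive side, from 0.62 to 1.01, and only Obp69a, with 1 filled spot, beyond it on the negative side.

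The furthest member from 0 was Obp56d, which is expressed in the antenna and in other head organs. It had a value of 1.01, a 2.01-fold difference, and all 10 of its spots were filled. Only 0.691% of measured genes had a higher value. It was also the only Obp gene past 2-fold.

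Next to it in value was Obp56a, a gene of the same tandem array on chromosome arm 2R. Its value was 0.97, or 1.96-fold, with 2 filled spots on arrays 1, 2, 3 and 5 and 1 on array 4. A second probe annotated to Obp56a had no filled spot on any array, so the value rests on the other. Obp56e, the next measured gene after Obp56d along the chromosome and is among the Obp genes known from male seminal fluid, had a value of 0.65 (1.57-fold), with 9 spots filled. The difference of Obp56d from Obp56a was 0.04 and from Obp56e 0.36, against an SD of a difference of 0.25, so the first pair could not be separated and the second lay 1.40 such SDs apart.

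The remaining Obp56 genes did not share these values. Obp56g encodes a protein made in the male ejaculatory bulb and known for a part in the mating plug. It had a value of -0.40, with 6 filled spots on arrays 1, 3 and 4. Obp56h, whose knockdown in males is known to change mating behaviour and cuticular hydrocarbons, had a value of -0.07 from 7 spots. Obp56d exceeded Obp56g by 1.41 and Obp56e exceeded Obp56h by 0.72, which is 2.84 SDs of a difference for probes on all arrays. Obp56g had no filled spot on arrays 2 and 5, and that SD does not cover such probes. Over the 5 measured Obp56 genes the median was 0.65, with a range of -0.40 to 1.01. On the positive side 3 of them, or 60%, lay at 1.5-fold or more, against 2.24% of all measured genes.

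The split within the Obp56 genes followed their order on the chromosome. Obp56a, Obp56d and Obp56e lie in 1 row with no other measured gene among them, and Obp56b and Obp56c of that row have no value here. The genes CG8517 and Or56a, an odorant receptor gene, lie between that row and Obp56g, with values of -0.07 and 0.04. Toll-7, which follows Obp56h, had a value of -0.09. On the outer side of Obp56a the nearest measured gene, CG15126, was at 0.64 from 5 spots, and beyond the Obp56i end CG13872 was at 0.08.

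**Figure D2:**
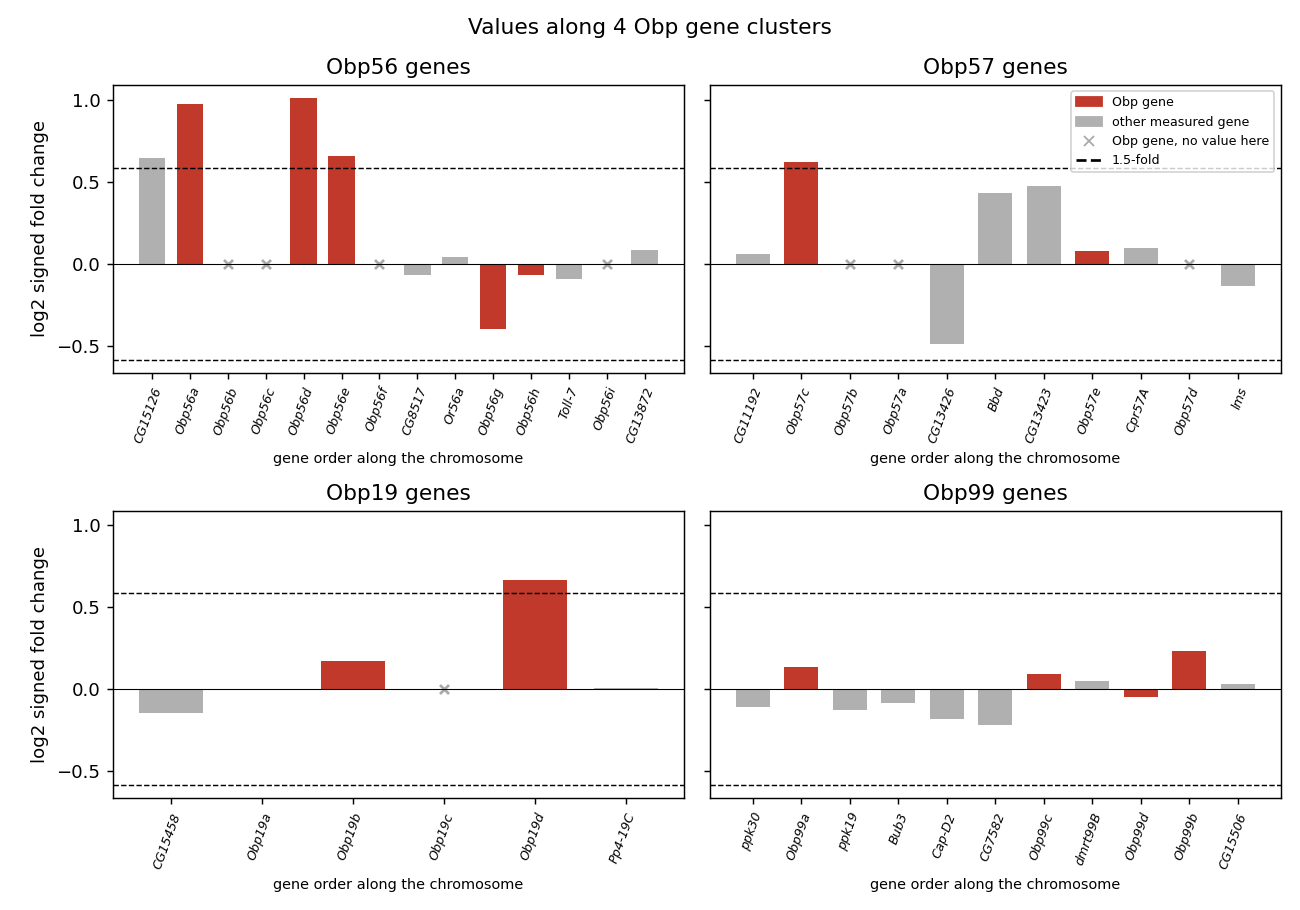
Log2 signed fold change (vertical axis) of measured genes in their order along the chromosome in the RefSeq gene table (horizontal axis, order only), for the Obp56, Obp57, Obp19 and Obp99 clusters with the nearest measured gene on each side. Red bars are Obp genes, grey bars other genes, crosses Obp genes without a value here and dashed lines 1.5-fold; the bar of Obp19a, at -0.01, is too short to see, and the high Obp56 bars sit next to each other at 1 end of that cluster.

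The Obp57 group had a value for 2 of its genes. Obp57c was at 0.62 (1.54-fold) from 9 spots, with a single empty spot on array 2. Obp57e, which acts in taste hairs of the leg and is known for the avoidance of the fatty acids of a host fruit, was at 0.08, also from 9 spots. The difference was 0.54, or 2.13 SDs of a difference. Of the 4 measured genes that lie between the Obp57 genes, CG13426 was at -0.49, Bbd at 0.43, CG13423 at 0.48 and Cpr57A at 0.10, so values on both sides occurred in that stretch. Of these 4, CG13423 and Cpr57A had 3 filled spots each.

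Of the Obp19 genes on the X chromosome, Obp19d stood apart. This gene, also known as Pbprp2, is expressed widely in smell and taste organs and its protein is known outside the fluid of the hairs as well. Its value was 0.67 (1.59-fold) from 9 spots, and 1.68% of measured genes were higher. Obp19b, a taste organ gene known for a part in amino acid detection, was at 0.17 from 9 spots, and Obp19a, an antennal gene, was at -0.01 from 6. Obp19d exceeded Obp19b by 0.49 (1.94 SDs of a difference) and Obp19a by 0.67, while Obp19b exceeded Obp19a by 0.18. Obp19a had no filled spot on array 5, so that SD does not cover its differences. The nearest measured genes outside the row, CG15458 and Pp4-19C, were at -0.14 and 0.01.

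All 4 Obp99 genes lay within 1.5-fold, as did 9582 of the 10124 measured genes. Their median was 0.11 and their range -0.04 to 0.24. Proteins of this group lack a pair of the conserved cysteines, and several are found in haemolymph or the fat body. Obp99b, known for sex-dependent expression in the fat body of the head, had probes at 0.15 and 0.33, which gave 0.24 and was the highest of the group. Obp99a was at 0.13 and Obp99c at 0.09, each with all 10 spots filled, and Obp99d was at -0.04 from 7. Obp99a, Obp99c and Obp99d, each with a value on all 5 arrays, differed by less than the SD of a difference. The upper probe of Obp99b had no filled spot on array 5, so that SD does not cover its gene value. The 5 measured genes between them had a median of -0.13.

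The 20 remaining Obp genes had a median of 0.10, close to that of the Obp99 genes. Of these, 15 were above 0, which is 75%, against 48.1% of all measured genes. Besides Obp19d and Obp19b, the well-filled genes of this set were Obp44a, known from glia and the nervous system as a carrier of fatty acids, at 0.28 with all 10 spots, Obp47b at 0.19, Obp28a, an abundant antennal gene, at 0.14 and Obp47a at 0.10, the last 3 with 9 spots each. Obp58b was at 0.30 from 3 spots and Obp18a at 0.26 from 6. Obp50b and Obp50e were at 0.11 and 0.10, but the RefSeq table gives Obp50b and Obp50c the same start and end, so the value of Obp50b cannot be assigned to 1 gene with certainty. Obp85a was at 0.09, Obp46a at 0.04, Obp58c at 0.03 and Obp8a, known from the male reproductive tract, at 0.02. Obp59a, which is needed for the sensing of humidity, was at 0.17 from 2 spots.

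Below 0 in the same set were Obp83cd at -0.12, Obp84a at -0.20, Obp93a at -0.36 and Obp69a at -0.69 (1.61-fold), beside Obp19a. Obp69a encodes an antennal protein tied to the response to a male pheromone. It was filled in 1 spot of 10, on array 3, and its value falls in the class where 43.4% of probes miss their gene's well-filled value by 1.5-fold or more. Among all measured genes with 1 to 4 filled spots, 11.2% lay at 1.5-fold or more on the negative side. Obp84a and Obp93a had 3 filled spots each, on arrays 1 and 3.

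The family's values moved with how well its probes were filled. All 14 Obp genes with 9 or 10 filled spots were above 0, with a median of 0.21 and a range of 0.08 to 1.01, and the 5 positive genes were all among them. Of the 5619 measured genes with that many spots, 48.8% were above 0 and 2.28% lay at 1.5-fold or more on the positive side. The 12 Obp genes with 5 to 8 spots had a median of 0.02 and ranged from -0.40 to 0.26. The 5 with 1 to 4 spots had a median of -0.20 and ranged from -0.69 to 0.30. In these classes 58.3% and 40% of the Obp genes were above 0, against 50.4% and 40.9% of all measured genes. The medians of all measured genes there were 0.001 and -0.05. No source states the filter behind an empty spot, and whether the filled number follows the level of the RNA was not tested.

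**Figure D3:**
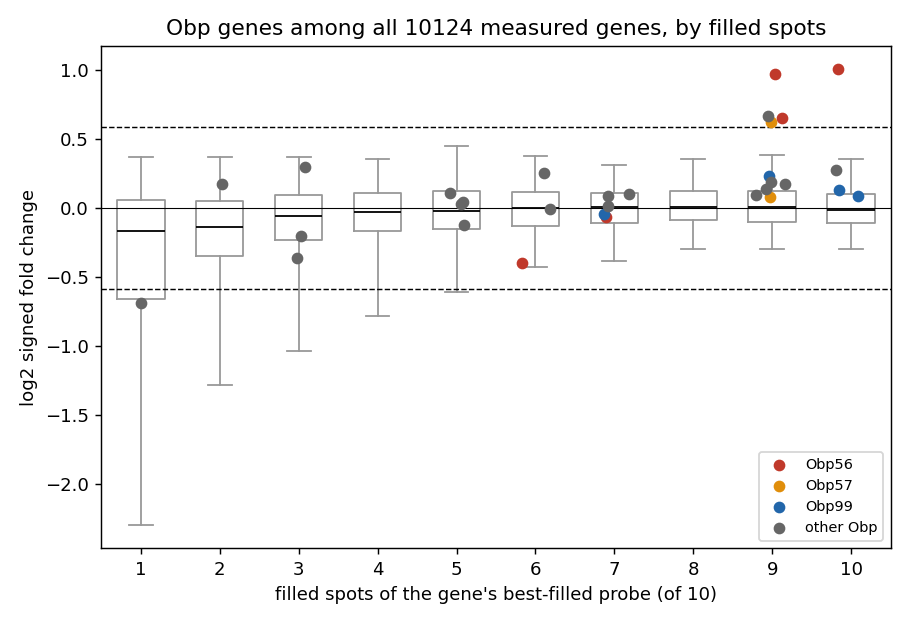
Log2 signed fold change (vertical axis) against the number of filled spots of the gene's best-filled probe (horizontal axis, at most 10). Boxes give the quartiles and whiskers the 5th and 95th percentiles of all measured genes, coloured points the Obp genes (shifted sideways at random within their column) and dashed lines 1.5-fold; every Obp gene with 9 or 10 spots lies above 0, while the boxes for those columns are centred near 0.

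Array by array, the measured Obp probes had between 53.1% (array 5) and 87.5% (array 3) of their spots filled. Over all probes with a value, the shares of those arrays were 69.2% and 93.8%. The Obp probes were filled less often than the average probe on all 5 arrays, with the widest gap on array 5. Obp58b, Obp59a, Obp84a and Obp93a had filled spots on arrays 1 and 3 alone.

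Grouped by where the genes are known to act, most measured members of each site lay within 1.5-fold, as did 9582 of the 10124 measured genes. The 7 measured genes of olfactory hairs, a list that includes the pheromone-binding protein gene lush at 0.06, had a median of 0.06, with Obp56d beyond 1.5-fold on the positive side and Obp69a on the negative side. The 2 measured genes of the taste list, Obp19b and Obp57e, were at 0.17 and 0.08. Obp19d, Obp56a and Obp57c, 3 of the 5 genes past 1.5-fold on the positive side, were in none of these lists. Obp19d is known from smell and taste organs, so the olfactory and taste lists leave out a positive gene. Of the 7 genes known from the male reproductive tract, 3 were measured, and they lay apart, with Obp56e at 0.65, Obp8a at 0.02 and Obp56g at -0.40. The 5 genes known outside the sense organs, Obp44a and the Obp99 genes, had a median of 0.13 and 0 beyond 1.5-fold.

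Other secreted or membrane proteins of chemosensory hairs lay mostly near 0. All 9 measured genes of this list lay within 1.5-fold, as did 9582 of the 10124 measured genes, so this count does not set them apart. Of the 9, 6 were above 0, and the median was 0.07. Snmp1, a membrane protein needed for pheromone detection, was at 0.07 and Os-C, an antennal secreted protein, at 0.16 from 4 spots. The gene a5 was at -0.16 and CheA75a at -0.54. Of the 5 genes listed for the chemosensory protein family, another group of small carriers, 3 had a value. They were EbpIII at 0.59 (1.51-fold), Phk-3 at 0.19 and a10 at -0.09 from 3 spots.

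Markers of several tissues were read in the same comparison. The accessory gland and the ejaculatory bulb are male organs, whereas all flies here were females, so those lists do not measure a tissue of these flies. Where the RNA read by their probes came from was not tested. For the counts that follow, 48.1% of all 10124 measured genes were above 0, and 2.24% were positive by 1.5-fold or more. The 7 measured photoreceptor markers ranged from 0.10 to 1.28, their median was 0.35, and 2 lay at 1.5-fold or more. Of 7 neuron markers, 6 were above 0, with a median of 0.22 and a range of -0.27 to 0.48. The 7 muscle markers had a median of 0.34 and a range of -0.58 to 1.17, with 5 above 0. The lowest of them, Act88F, joined 2 probes at -2.76 and 1.60, so its side is not settled. The 8 fat body markers were split evenly, 4 above 0 and 4 below, with a median of 0.14, a range of -0.55 to 1.02 and 2 at 1.5-fold or more on the positive side. The male accessory gland markers lay the other way, with 11 of 12 below 0, a median of -0.40 and a range of -3.20 to 0.07. The 4 of them at 1.5-fold or more on the negative side, Mst57Db at -3.20, Acp95EF, Acp36DE and Acp62F, had 3 or 4 filled spots each, the class in which 11.2% of all measured genes lay as far. Of the 12, 3 had every measured probe on all 5 arrays. Of the 2 measured genes listed for the ejaculatory bulb, EbpII was at -1.94 and EbpIII at 0.59. The part of these markers in the Obp values was not tested.

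**Figure D4:**
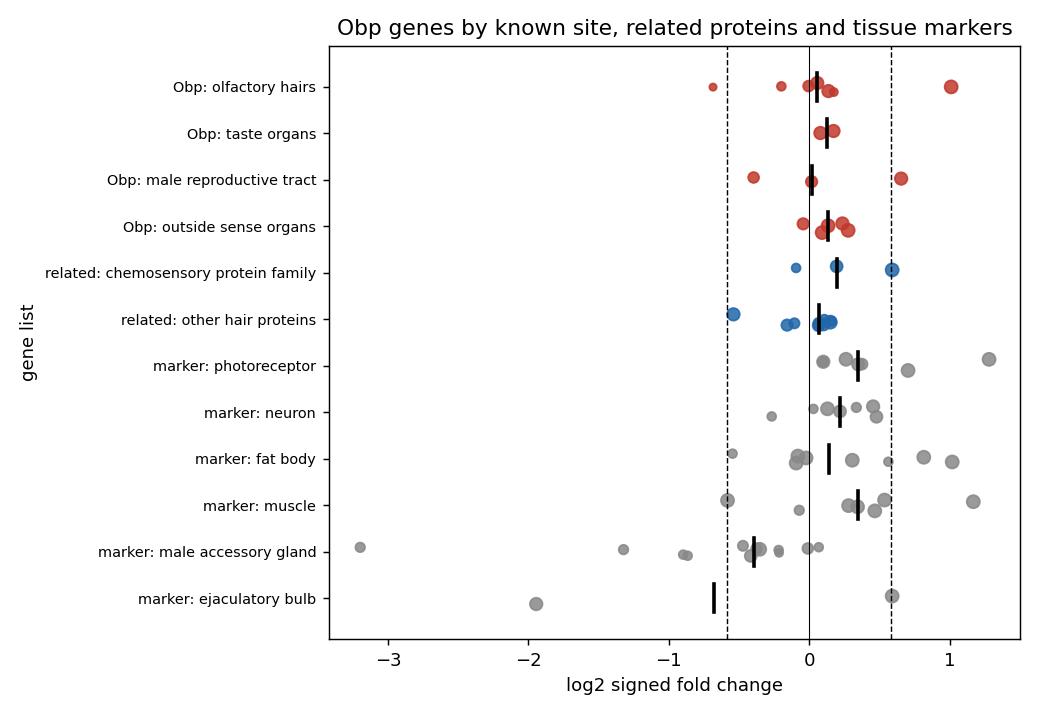
Log2 signed fold change (horizontal axis) of single genes in each list (vertical axis), with the median as a black bar, larger points for more filled spots and dashed lines at 1.5-fold. Red points are Obp genes and lush by known site and grey points tissue markers. Blue points are the chemosensory protein family and other proteins of chemosensory hairs. The Obp points of most sites lie near 0, with Obp56d and Obp56e to the right and Obp56g and Obp69a to the left. The accessory gland markers lie mostly to the left, down to -3.20 for Mst57Db with 4 filled spots.

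By chromosome arm, 14 of the 16 Obp genes on 2R were above 0 and 4 were at 1.5-fold or more on the positive side, whereas 4 of the 8 on 3R were above 0 and 0 reached 1.5-fold. Of all measured genes, 49.1% on 2R and 47.6% on 3R were above 0, and 2.84% on 2R and 1.89% on 3R were at 1.5-fold or more on the positive side, so none of 8 is near the share of 3R. Of the 5 Obp genes on X, 4 were above 0 and 1 was at 1.5-fold or more on the positive side. For all measured genes on X the shares were 46.7% and 1.61%. Of the 4 positive genes on 2R, 3 are the Obp56 genes of 1 row. The 3R genes below 0, Obp83cd, Obp84a, Obp93a and Obp99d, had 3 to 7 filled spots. Among the 32 measured genes that lie between or beside the Obp genes of 7 clusters, 18 were above 0 and 14 below, with a median of 0.04. CG15126 and Gasp, a gene of the chitin matrix near Obp83cd at 0.68, were the 2 at 1.5-fold or more on the positive side, which is 6.25% of them, against 2.24% of all measured genes.

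On the arrays themselves, the probes around the 5 positive genes had medians between -0.12 and 0.08. Within 2 spots in either direction, the surrounding probes had a median of -0.03 for Obp56d, 0.08 for Obp56a, -0.12 for Obp56e, 0.06 for Obp57c and 0.02 for Obp19d. Of these neighbours, 2 of 22 for Obp56d and 2 of 16 for Obp57c lay at 1.5-fold or more on the positive side. The other 3 genes had 0 such neighbours, and 2.24% of all measured genes lay that far. On the negative side were 3 of 22 for Obp56d, 2 of 22 for Obp56e and 1 of 19 for Obp56a. Obp57c and Obp19d had 0 there, and the share of all measured genes was 3.11%. Both shares are of gene values, whereas the neighbours are single probes, for which no share was computed. Related Obp sequences can bind the same spot, and how far probes of the Obp56 row share RNA was not tested, since the probe sequences were not analysed here.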

How the data were processed

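The series matrix holds a signed fold change for each spotted feature, deposited by the authors and handled here as a score because it can be negative. No absolute value was under 1. Of 29507 features with a value, 0 differed between array columns by more than 1e-06, and 0 of 14535 pairs of spot copies differed. Per the labels and the design text, arrays were scanned 3 times, and all copies and hybridisations entered the normalization. Its method and filter are not stated there.

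Each score was turned into log2 of its size with its sign kept. Both copies of a probe were joined, and a gene's value is the median over its probes, counting values equal to 5 decimals once. Symbols were updated with a RefSeq table of Release 6, through Entrez identifiers for 12068 probes and accessions for 113, while 355 kept the annotated name. Coordinates are left out because the sources name no build. The join was tested on simulated data. Members and lists were chosen with earlier results of these data known. All members could be named, with the nearest measured gene on each side of a cluster and up to 4 genes furthest from 0 in a list. Snmp1 and genes lying between members were chosen after their values were seen. Protein classes were not analysed here. Precision is limited by the number of arrays. The alternatives were a 2-fold threshold, stricter filters on filled spots, other joins of probes, centring, symbols as annotated and leaving out each array. Python 3.11.15, numpy 2.4.6, pandas 2.3.3 and matplotlib 3.10.9 were used.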

Additional observations from a re-analysis of the deposited data

How the results depend on the processing

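Across 12 alternatives, the counts and medians of the Obp genes moved little, except the count at the threshold and the Obp56 median. With probes on all 5 arrays that median was 0.81 over 4 genes, without Obp56g, against 0.65 over 5. This shift is still counted below as within the SD between probes. At 2-fold, 1 gene was left on the positive side (Obp56d) and 0 on the negative side. The negative count, which rests on Obp69a alone, was also 0 with probes on all 5 arrays, with at least 5 filled spots, and without array 3, and ranged from 0 to 1 over the arrays left out in turn. Of 153 recomputed values, 148 stayed within the SD between probes of 0.18 (counts: within 1.5 times). Much of this was fixed in advance. Of the 31 genes, 30 had 1 measured probe, so other joins of probes could change only Obp99b and medians that include it. Symbols as annotated gave the same members, and centring subtracted a median of only -0.01. The number that stayed therefore does not measure how certain the values are. Leaving out an array removes only probes filled there alone, since each value is already combined over arrays, so it does not measure the spread between arrays.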
